A study of Arabidopsis thaliana with 59 samples.

Results

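SQ-8 is a natural line of Arabidopsis thaliana and one of 10 accessions in this study that are spring annuals, which flower without having passed a winter. Its well watered leaves are described here against those of the other 9 accessions. Members were taken by the labels alone: the 3 wet arrays of SQ-8, numbered 1 to 3, were set against the mean of the wet groups of Bur-0, CIBC-17, Col, HR-5, KNOX-18, Ler, NFA-10, Ts-1 and Ws-2, matched by replicate number. That makes 3 arrays against 27, or 30 wet arrays of 59 in the series; the other 29 come from plants on drying soil, with 3 of SQ-8 and 26 of the rest. Each array holds cRNA from rosette leaves of non-mutant plants, 1 plant to a pot in a porous ceramic medium, and wet pots were kept close to full water content while that of the dry pots was lowered over several days. The labels call the arrays of a group biological replicates and do not say how many plants went into each, or at what age leaves were taken.

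Accessions of Arabidopsis carry different alleles of many genes, so that leaf transcript levels can differ between lines grown side by side. Genes known for such differences in this species include FLC, which encodes a repressor of flowering that cold winters switch off, the receptors of the NLR family that detect pathogens, the defensins and thionins that act as antimicrobial peptides, and the enzymes that make and break down glucosinolates, the mustard oil precursors that deter herbivores. Salicylate and jasmonate are the hormones behind the main defence programmes of the leaf.

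The deposited table gives 1 log2 value for each of 20728 loci on every array, and the medians of the 30 wet arrays lay between 5.50 and 5.62. Tissue markers had similar averages in SQ-8 and the rest. The 6 measured mesophyll and leaf markers averaged 11.7 in SQ-8 and 11.5 in the others. For 15 root markers the averages were 4.79 and 4.76, and for 18 floral and seed markers 4.06 in both. Among these and the 14 guard cell, 14 vascular and 13 trichome and epidermis markers, limma called 0 genes (3 had an unadjusted p below 0.05). Over all loci 1.65% were called and 10.8% had an unadjusted p below 0.05, so 0 calls among so few markers says little. In 29 of 30 wet arrays the profile over 500 loci that vary among accessions correlated best with the array's own accession. The exception was Ler wet 3, with r = 0.708 to Col and 0.692 to Ler. Of 90 loci used to place this array between Ler and Col, 37 lay nearer Col. For Ler wet 1 and 2 these were 4 of 65 and 2 of 68. The labels also give Col wet 3 the stock number of Ws-2, although its values lay with Col. Ler wet 3 and Col wet 3 were both kept, and the main counts are also given without them. The values are hybridisation signals and the probe sequences were not used here, so transcript level and fit of an accession's sequence to the probes cannot be told apart, nor can a smaller number of cells of a type be told apart from less RNA per cell.

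The first question was how many loci differ between well watered SQ-8 and the other accessions. A linear model (limma, with 1 mean for each accession and the replicate number as a block) called 343 of 20728 loci at an adjusted p below 0.05, which is 1.65%; 190 were higher in SQ-8 (0.917%) and 153 lower (0.738%). The median size of a called difference was 0.73 on the log2 scale, with 83 called loci below 0.5 in size, 98 at 1 or more and 14 at 2 or more. At an unadjusted p below 0.05 there were 2232 loci. All 343 called loci had the same sign in each of the 3 matched numbers. The tested difference is the mean over these same 3 numbers, so equal signs are largely built into a call. The count depended on single arrays: it was 177, 224 and 171 without SQ-8 wet 1, 2 and 3, and 423 without Ler wet 3. It was 332 without Col wet 3 and 426 without both. A median of 5 of the 9 pairwise contrasts with single accessions passed for a called locus, and for 13 loci all 9 passed.

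A called mean difference can come from SQ-8 standing alone or from a few other accessions standing apart, so loci were called set apart when the adjusted p was below 0.05, the difference was at least 1 on the log2 scale, and all 3 SQ-8 wet arrays lay above, or all below, every one of the 27 other wet arrays. This left 15 loci (0.0724%), 8 higher (0.0386%) and 7 lower (0.0338%) in SQ-8. The 15 became 21 without Ler wet 3, 16 without Col wet 3 and 22 without both. Without the test or the size limit, 36 loci (0.174%) had no overlap, 18 in each direction. The smallest difference inside the limit was that of AT2G42240, at 1.07, and the largest just outside it was that of YAB3, a transcription factor gene of leaf polarity, at 0.99. All 15 were protein coding, and 0 were among the dimmest 25% of loci by mean signal. Most carry only a locus name in the reference table, and for those no role is given.

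**Figure D1:**
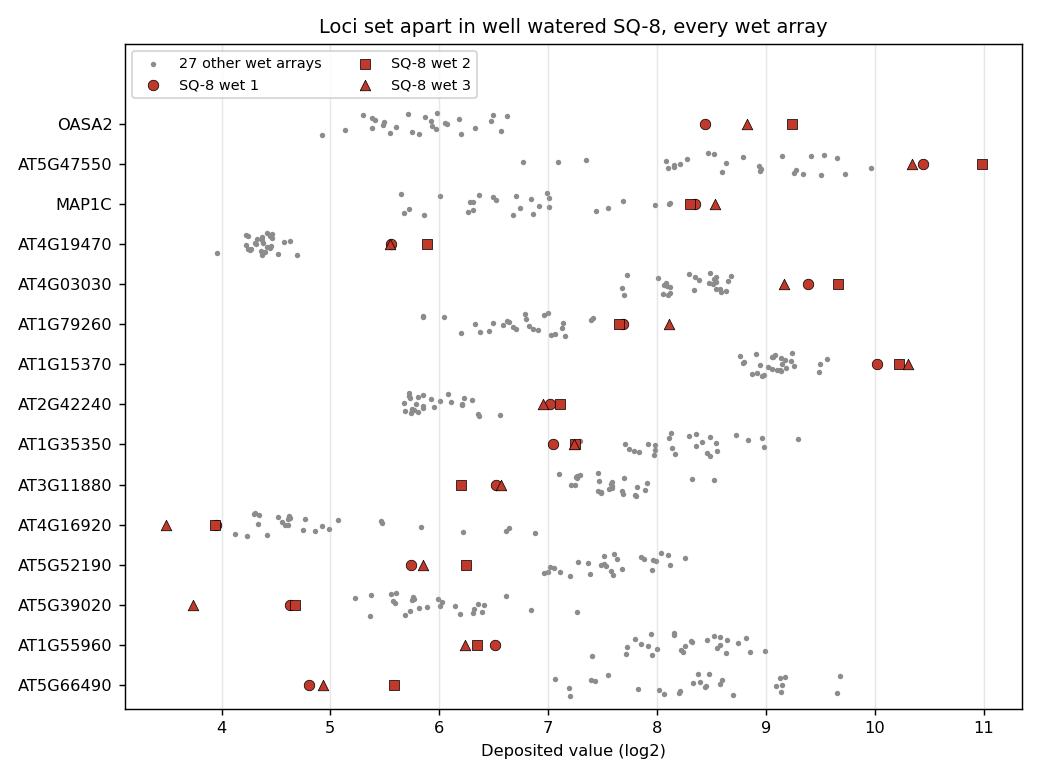
The deposited log2 value (horizontal axis) of the 15 loci set apart in well watered SQ-8 on each wet array, with the 3 SQ-8 arrays as red symbols and the 27 other arrays as grey points spread vertically for visibility. The rule that chose the loci places the red symbols outside the grey points in each of them. The margin is widest for OASA2 among the higher loci and AT5G66490 among the lower ones.

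OASA2, annotated as an isoform of O-acetylserine (thiol) lyase, the enzyme class that makes cysteine, was the most elevated of the set apart loci. It read 8.44, 9.24 and 8.82 on the SQ-8 wet arrays, against 4.92 at the lowest, 5.87 at the median and 6.62 at the highest of the other 27. Every SQ-8 array thus stood well clear of the others, whose accession means spanned only 5.64 (HR-5) to 6.33 (Ts-1). The difference was 3.00 ± 0.16 (SE) on the log2 scale, or 8-fold, with an adjusted p of 2.23e-10 (limma), and SQ-8 passed against all 9 accessions singly.

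Of the other loci set apart upward, AT5G47550 and MAP1C had the larger differences. AT5G47550 read 10.44, 10.98 and 10.34 in SQ-8, and 6.76, 8.79 and 9.96 at the lowest, median and highest of the others. Bur-0 came nearest with a mean of 9.52, and the difference of 1.89 ± 0.36 (adjusted p = 0.00518, limma) passed pairwise against only 4 accessions, namely KNOX-18, NFA-10, Ler and Col. It was lost without SQ-8 wet 2 (adjusted p = 0.108). MAP1C, annotated as methionine aminopeptidase 1B, an enzyme that removes the first methionine of new proteins, read 8.34, 8.30 and 8.53 against 5.65, 6.70 and 8.12. The SQ-8 arrays agreed closely with each other, and KNOX-18, with a mean of 8.07, was the single accession from which SQ-8 was not separated (difference from the mean of the 9 of 1.65 ± 0.25, adjusted p = 0.00044).

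AT4G19470 lies low on the scale and was nearly flat among the other accessions. SQ-8 read 5.55, 5.89 and 5.54, while the others ran from 3.96 through a median of 4.37 to 4.69, so the gap was wider than the whole range of the 27 arrays. Its difference was 1.29 ± 0.08 (adjusted p = 2.81e-09). AT2G42240 read 7.01, 7.11 and 6.95 in SQ-8 and 5.68, 5.85 and 6.55 at the lowest, median and highest of the rest, with Bur-0 nearest at a mean of 6.42. Its 3 matched differences were 1.07, 1.09 and 1.05. The remaining 3 loci were AT4G03030 (9.38, 9.66 and 9.17 against 7.68 to 8.67), AT1G79260 (7.68, 7.65 and 8.11 against 5.85 to 7.42) and AT1G15370 (10.02, 10.22 and 10.30 against 8.76 to 9.56). Their differences were 1.11 ± 0.11, 1.1 ± 0.11 and 1.09 ± 0.11, and each passed against all 9 accessions singly. AT1G79260 stayed called but fell under the size limit without SQ-8 wet 3 or without Ts-1.

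AT5G66490 led the loci set apart downward. It read 4.80, 5.58 and 4.93 on the SQ-8 wet arrays, where the others had 7.06 at the lowest, 8.40 at the median and 9.68 at the highest. The lowest of the other accession means, 7.68 in NFA-10, still lay far above all SQ-8 arrays. SQ-8 was 9.47-fold lower, a log2 difference of -3.24 ± 0.29 (adjusted p = 6.64e-07, limma), and passed against all 9 accessions.

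AT1G55960 read 6.51, 6.34 and 6.24 in SQ-8 against 7.40, 8.25 and 8.99 at the lowest, median and highest of the others, a difference of -1.91 ± 0.16 (adjusted p = 5.16e-07). AT5G52190 read 5.74, 6.25 and 5.85 against 6.96, 7.58 and 8.25, a difference of -1.63 ± 0.17 (adjusted p = 4.64e-06). In both, the SQ-8 arrays were tight and did not approach the lowest of the others. AT3G11880, at 6.52, 6.2 and 6.57 against 7.10 to 8.52, differed by -1.16 ± 0.12 (adjusted p = 5.09e-06), and these loci passed in all 9 pairwise contrasts too.

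AT5G39020 was low in SQ-8 on every array, at 4.63, 4.67 and 3.74, while the others ran from 5.23 through 5.89 to 7.26. Its difference was -1.63 ± 0.21 (adjusted p = 0.000102), and it passed against all 9 accessions. The next measured locus along the chromosome, AT5G39030, was called in the same direction with a difference of -1.55. AT4G16920 lies among the low signals of the array, at 3.95, 3.94 and 3.49 in SQ-8 and 4.12, 4.63 and 6.88 at the lowest, median and highest of the others. CIBC-17, with a mean of 6.57, was high at this locus, and SQ-8 was not separated from Ws-2, Bur-0, Ts-1 or KNOX-18. Without CIBC-17 the difference was -0.997 with an adjusted p of 0.011, just under the size limit. AT1G35350 had the smallest margin, with 7.04, 7.25 and 7.24 in SQ-8 and a lowest other array at 7.29. Its difference of -1.1 ± 0.20 (adjusted p = 0.00341) was lost without SQ-8 wet 1 (adjusted p = 0.0957).

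The contrasts with single accessions use the same wet arrays that chose the loci, so they are not separate evidence. Of the 15 loci set apart, 11 passed against each of the 9 accessions singly. Among called loci, 2 more did so, XTH33 and AT2G29160, which overlapped with single arrays of other accessions and were named after their values were seen. XTH33 encodes a xyloglucan endotransglucosylase, an enzyme that remodels cell wall xyloglucan. It read 7.13, 8.05 and 8.18 in SQ-8 and 4.50, 5.10 and 7.56 at the lowest, median and highest of the others, so that SQ-8 wet 1 fell inside the range of the rest. The difference was 2.33 ± 0.31 (adjusted p = 0.000121). AT2G29160 averaged 7.43 in SQ-8 and 5.97 in the others (difference 1.46 ± 0.17, adjusted p = 2.55e-05).

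Differences as large occurred at loci where SQ-8 shared its level with some of the other accessions. Of the 14 called loci with a difference of 2 or more in size, 12 overlapped with other wet arrays, 8 higher and 4 lower in SQ-8; apart from PDF1.2, which the naming rule gives, they were chosen after their values were seen. At the top, AT4G29200 read 8.43, 7.89 and 8.27 in SQ-8, with 4.07, 4.33 and 8.34 at the lowest, median and highest of the others. Bur-0 alone shared the high level, with a mean of 7.79, and the next accession mean below it was that of Col. The difference from the mean of the 9 was 3.49 ± 0.16 (adjusted p = 2.29e-11, limma), and it passed against 8 accessions.

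HR4, a homologue of the powdery mildew resistance gene RPW8, read 11.20, 10.96 and 10.44 in SQ-8 and 7.46, 8.04 and 11 at the lowest, median and highest of the others. Col had the same high level, with a mean of 10.95, and the other 8 accessions were all low; SQ-8 differed from the mean of the 9 by 2.54 ± 0.17 (adjusted p = 5.27e-09, limma). CRK4, which encodes a cysteine-rich receptor-like kinase, read 8.93, 8.79 and 7.95 in SQ-8, with KNOX-18, NFA-10 and Col equally high at means of 8.07, 8.30 and 8.13. Ws-2 averaged 7.20, and the remaining accessions lay between 4.859 and 5.165. The CRK4 difference was 2.27 ± 0.24 (adjusted p = 5.19e-06). MES9, a methyl esterase of the family that acts on methyl esters of plant hormones, read 7.91, 8.2 and 6.97, and only NFA-10 (mean 6.92) and Bur-0 (mean 6.45) lay clear of the 4.60 to 4.77 that the remaining accessions averaged. Its difference of 2.58 ± 0.25 (adjusted p = 2.39e-06) passed against all but NFA-10.

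The remaining high loci split the accessions into a high and a low group, with SQ-8 in the high one. AT1G78450 averaged 8.54 in SQ-8 and was not separated from Ws-2, KNOX-18 and NFA-10, while CIBC-17 averaged 4.1. AT3G48650, a transcribed pseudogene, averaged 7.05 in SQ-8 beside Ts-1, Ler and Col, while 6 accessions lay between 3.64 and 4.02. AT2G25510 was one of the brightest signals, at 13.56, 13.34 and 12.78 in SQ-8, and here it was 3 accessions that were low: Ts-1 at 7.24, KNOX-18 at 5.39 and Ler at 4.88. SQ-8 differed from the mean of the 9 by 2.53 ± 0.39 (adjusted p = 0.000696) but was not separated from the other 6 accessions at this locus.

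The 4 lower loci behaved alike. AT1G50290 read 3.89, 4.92 and 4.55 in SQ-8, against 4.17, 9.66 and 10.54 at the lowest, median and highest of the others. Ts-1 shared the low level with a mean of 4.50. Bur-0 and Col lay between, at 5.89 and 6.02, and the other 6 accessions averaged between 9.28 and 10.33. The difference was -3.97 ± 0.19 (adjusted p = 2.29e-11). PAP3, a purple acid phosphatase, read 4.25, 5.07 and 4.13 in SQ-8 and was equally low in CIBC-17 (mean 4.65), with a difference of -2.38 ± 0.30 (adjusted p = 7.05e-05). THI2.2, which encodes a thionin, averaged 4.96 in SQ-8, close to Ws-2, Bur-0 and Ler, while Ts-1 averaged 9.47 and CIBC-17 9.13. Its difference was -2.03 ± 0.29 (adjusted p = 0.000238).

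**Figure D2:**
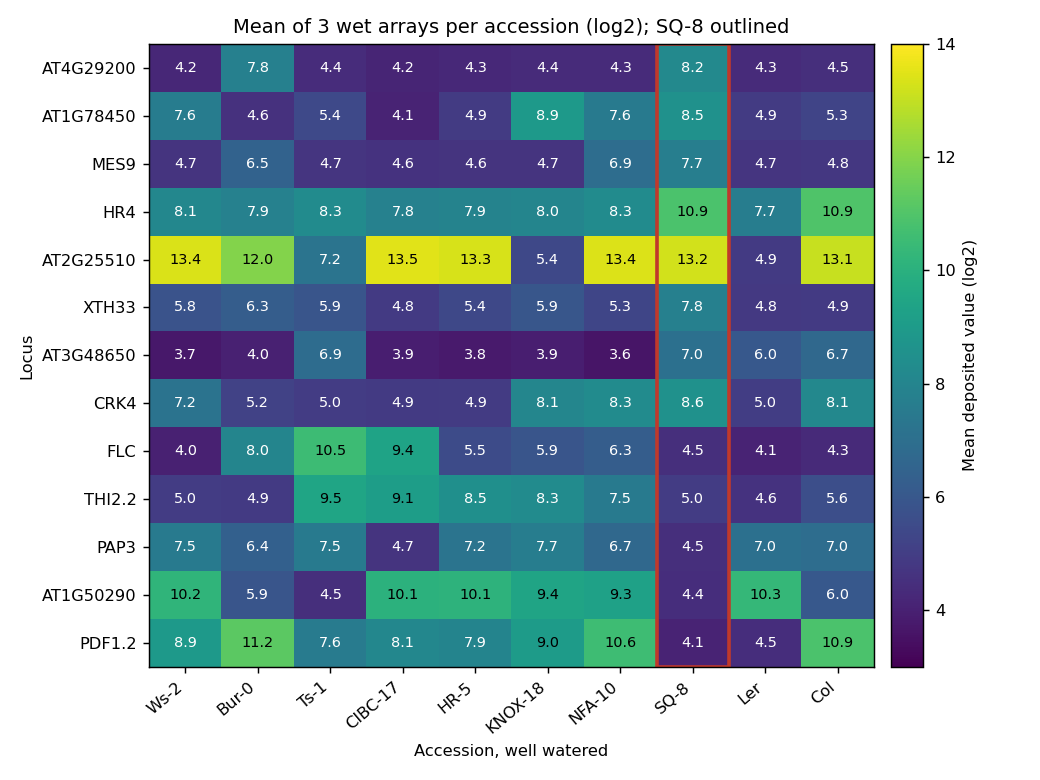
Mean log2 value of the 3 wet arrays of each accession (columns, SQ-8 outlined) for the 12 loci with a called difference of 2 or more in size that overlap with other accessions, and for FLC, ordered from the most elevated in SQ-8 to the lowest. Each row except that of XTH33 has at least 1 other accession near the level of SQ-8, and which accession it is varies, such as Bur-0 at AT4G29200 and Col at HR4.

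PDF1.2, a plant defensin and a marker of jasmonate and ethylene signalling, had the largest difference of all called loci in size. It read 3.75, 4.68 and 3.84 on the SQ-8 wet arrays, and 4.36, 8.80 and 12.93 at the lowest, median and highest of the others. Ler was as low, with a mean of 4.45, while Bur-0 averaged 11.22, Col 10.89 and NFA-10 10.57, so the gene ranged over much of the scale of the array among accessions. The difference of -4.66 ± 0.76, or 25.2-fold lower in SQ-8, had an adjusted p of 0.00114 (limma) and passed against all but Ts-1 and Ler. No other of the 19 measured jasmonate and wounding genes was called. Their median difference was -0.35, against -0.0015 over all loci, and 6 of the 19 had an unadjusted p below 0.05, as did 10.8% of all loci. Of these genes LOX2, which makes jasmonate precursors, differed by 1.3 (adjusted p = 0.18) and LOX3 by -1.40 (adjusted p = 0.329), in opposite directions.

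Over 30 gene lists, 13 of 520 measured members were called (2.50%, against 1.65% of all loci), 6 higher and 7 lower. The 13 became 8, 7 and 6 without SQ-8 wet 1, 2 and 3, and 7 without the replicate block. Of all loci, 10.8% had an unadjusted p below 0.05. In lists with a call, 7 of 19 NLR, 6 of 26 cell wall and 6 of 20 natural variation genes did. So did 4 of 15 photoreceptor, 3 of 8 glucosinolate hydrolysis, 3 of 15 indole and 3 of 20 aliphatic glucosinolate genes. Metal genes had 3 of 34 and heat shock genes 1 of 19. No list was tested as a set. Among 19 NLR receptor genes, CW9 was higher in SQ-8 while RLM3 and RPP4 were lower. RLM3, known for resistance to the fungus Leptosphaeria maculans, read 5.0, 4.19 and 4.31 in SQ-8 and 4.89, 5.66 and 7.23 at the lowest, median and highest of the others. Its difference was -1.33 ± 0.25 (adjusted p = 0.00415), and it was lost without SQ-8 wet 2 (0.097) or wet 3 (0.0714). RPP4, a receptor for downy mildew, was at the floor of the scale in SQ-8 (3.44, 3.33 and 3.38) and in 8 other accessions, and only Col was high, with 6.27, 6.50 and 6.44. The called difference of -0.37 ± 0.05 (adjusted p = 0.000122) was lost when Col was left out (adjusted p = 0.839). AT4G16920, one of the loci set apart, has a locus number between those of RPP4 (AT4G16860) and RLM3 (AT4G16990).

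CW9 read 7.05, 6.43 and 5.96 in SQ-8, inside the 4.86 to 6.95 of the other arrays but for SQ-8 wet 1. The difference was 0.78 ± 0.13 (adjusted p = 0.00162) and was lost without that array (adjusted p = 0.074). RPM1, the receptor for bacterial effectors whose gene is missing from some accessions, differed by -0.09 ± 0.18 (adjusted p = 0.924).

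Glucosinolate genes gave 3 calls in 3 lists. IGMT1, which methylates indole glucosinolates, read 6.22, 7.62 and 6.79 in SQ-8 and 3.47, 4.96 and 9.11 at the lowest, median and highest of the others. Ts-1 was far higher, with a mean of 8.49, while Bur-0 and CIBC-17 averaged 3.54 and 3.55. The difference was 1.63 ± 0.28 (adjusted p = 0.00193), and without the replicate block its adjusted p was 0.101. It was the single call among 15 indole glucosinolate genes.

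ESP, the epithiospecifier protein that steers glucosinolate breakdown toward nitriles, was high in SQ-8 (13.04, 12.76 and 12.93) and in 8 other accessions, and only Col was low, at 7.26, 5.77 and 6.08. The called difference of 1.02 ± 0.17 (adjusted p = 0.00194) was lost without Col (adjusted p = 0.412) or without SQ-8 wet 3 (adjusted p = 0.0631). AOP1, a dioxygenase of the AOP family, was the single call among 20 aliphatic glucosinolate genes and stood at the threshold, with a difference of -1.07 ± 0.27 (adjusted p = 0.0494). It read 4.68, 4.54 and 4.27 in SQ-8, and Ler was as low with a mean of 4.43. It passed under 14 of 46 alternative settings. ESM1, a modifier of the same breakdown step with natural variants, read 9.61, 9.81 and 9.96 against 5.21, 8.57 and 12.30, and its difference of 1.28 ± 0.49 was not called (adjusted p = 0.28).

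FLC was low in SQ-8, at 4.21, 4.30 and 4.88, where the others had 3.87 at the lowest, 5.75 at the median and 10.80 at the highest. In this Ws-2 (mean 3.99), Ler (4.1), Col (4.31) and HR-5 (5.52) were not separated from it, while Ts-1 averaged 10.52, CIBC-17 9.38 and Bur-0 8.01. The difference was -1.98 ± 0.22 (adjusted p = 1.45e-05, limma) and passed against 5 accessions. FLC was the single call among 19 flowering time genes, 4 of which had an unadjusted p below 0.05 (10.8% of all loci did). FLC and ESP were the calls among 20 genes listed for known natural variation. Of the light receptor genes, PIF3, a partner of the phytochromes, was called at 0.49 ± 0.12 (adjusted p = 0.0402) and lost the call without any 1 of the SQ-8 wet arrays (adjusted p = 0.286, 0.224 and 0.11 without 1, 2 and 3) or the replicate block (0.0671), and it passed under 29 of 46 settings. PHYD, a phytochrome whose gene is defective in Ws, missed the threshold at -0.51 ± 0.13 (adjusted p = 0.0503), and Ws-2 had the lowest mean, 5.98, beside 6.01 in SQ-8.

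Cell wall, metal transport and heat shock genes gave the last 4 calls. XTH6, a cell wall enzyme of the same family as XTH33, read 9.28, 8.87 and 8.05 in SQ-8 and 6.02, 7.65 and 9.29 at the lowest, median and highest of the others (difference 1.03 ± 0.23, adjusted p = 0.0161), with Ler as high at a mean of 8.82. It lost the call without SQ-8 wet 1, 2 or 3 (adjusted p = 0.0938, 0.199 and 0.0589), without the replicate block (0.383), with all 59 arrays in the fit (0.243) and without CIBC-17 (0.0532). EXPB1, a beta-expansin that loosens walls, read 5.37, 6.15 and 6.65, and its 3 matched differences were 0.27, 0.81 and 1.60 (mean 0.89 ± 0.22, adjusted p = 0.0439), and it passed under 16 of 46 alternative settings. The call was lost without SQ-8 wet 2 or 3 (adjusted p = 0.157 and 0.554) and without the replicate block (adjusted p = 0.0748), among others. Both belong to a list of 26 expansin and cell wall genes with 0 lower calls. As only 0.738% of all loci were called lower, that gives no direction for the list.

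COPT2, a copper transporter, read 7.35, 6.55 and 6.37 in SQ-8 against 6.54, 7.61 and 9.52 (difference -1.05 ± 0.19, adjusted p = 0.0033), and CIBC-17 was as low with a mean of 6.81. It was the single call among 34 iron, copper and zinc genes and was lost without the replicate block (adjusted p = 0.138). HSP18.2, a small heat shock protein, was the single call among 19 heat shock genes, at -0.53 ± 0.13 (adjusted p = 0.0337). Its call was lost without SQ-8 wet 1, 2 or 3 (adjusted p = 0.388, 0.0713 and 0.143), and without Ws-2 (0.0875) or KNOX-18 (0.0793).

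The remaining lists gave 0 calls in limma, and their members at an unadjusted p below 0.05 are read against 10.8% of all loci at that level. Of 22 salicylate defence genes 4 had an unadjusted p below 0.05, of 31 dehydration and abscisic acid induced genes 4, of 15 cold genes 1, of 20 senescence genes 2, of 20 oxygen scavenging and glutathione transferase genes 1, of 23 flavonoid genes 1, of 19 phosphate starvation genes 1 and of 20 nitrogen and amino acid genes 2. Primary functions looked the same in this respect, with 3 of 22 photosynthesis genes, 0 of 14 Calvin cycle genes, 1 of 18 cytosolic ribosomal protein genes and 2 of 12 housekeeping genes at an unadjusted p below 0.05. The 15 circadian clock genes had 0 at that level and a median difference of -0.0017. Of single genes in the naming rule, ACD6, a regulator of salicylate defence with known natural alleles, differed by 0.03 ± 0.26, PR1, the classic salicylate marker, by 0.23 ± 0.64, and ER, a receptor kinase of growth and stature that is mutant in Ler, by 0.08 ± 0.24. For ACD6 the SQ-8 arrays were far apart, at 10.18, 8.44 and 8.22, and for PR1 they read 8.72, 7.51 and 7.47, with SQ-8 wet 1 the highest in both.

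The dry arrays come from other plants and did not enter the wet calls, so they show how far the wet differences hold in samples of their own. List genes are a limit here, because their lists were chosen with earlier results of these data known. Of the 343 called loci, 317 (92.4%) had the same sign of difference in the dry comparison, against 52.3% of all loci, and 214 (62.4%) were called there with that sign, or 193 without the replicate block and 173 to 182 without single SQ-8 dry arrays. The dry comparison called 4030 loci (19.4%), so those 214 are 5.31% of its calls. Both comparisons opposed each other, with calls of opposite sign, at 2 loci, AT5G01750 (-0.60 in wet, 0.40 in dry) and AT5G14450 (0.76 in wet, -0.54 in dry), named after their values were seen. Without SQ-8 dry 1, 2 or 3 the dry comparison called 2123, 2517 and 2467 loci.

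All 15 loci set apart in wet passed the dry test with the same sign (12 of them without the replicate block, and 13, 13 and 14 without SQ-8 dry 1, 2 and 3), and 8 again had no overlap with the 26 other dry arrays. OASA2 read 9.67, 9.54 and 10.02 in dry SQ-8, against 5.32, 6.23 and 6.62 at the lowest, median and highest of the others, a difference of 3.54 ± 0.14 (adjusted p = 2.03e-12). AT5G66490 read 5.66, 4.79 and 4.93 against 7.26, 8.58 and 9.74, a difference of -3.49 ± 0.24 (adjusted p = 1.22e-08). For both the groups stayed apart by more than the spread within SQ-8. The other 6 without overlap in dry were AT4G19470, AT4G03030, AT1G15370, AT2G42240, AT5G52190 and AT3G11880. At AT1G55960 SQ-8 dry 1 read 8.62 while dry 2 and 3 read 6.38 and 6.52, so dry 1 lay amid the others and dry 2 and 3 below them all, the lowest other being 7.27. The weakest dry calls were those of AT1G35350 (-0.85 ± 0.28, adjusted p = 0.0368) and AT1G79260 (0.40 ± 0.13, adjusted p = 0.0365), which were lost without SQ-8 dry 1 (adjusted p = 0.401 and 0.151). The first was also lost without dry 3 (adjusted p = 0.0846), the second without dry 2 (adjusted p = 0.317), and the dry call of AT4G16920 without dry 2 (adjusted p = 0.0674). Without the replicate block the dry calls of MAP1C (adjusted p = 0.134), AT1G55960 (0.0839) and AT1G35350 (0.0531) were lost.

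**Figure D3:**
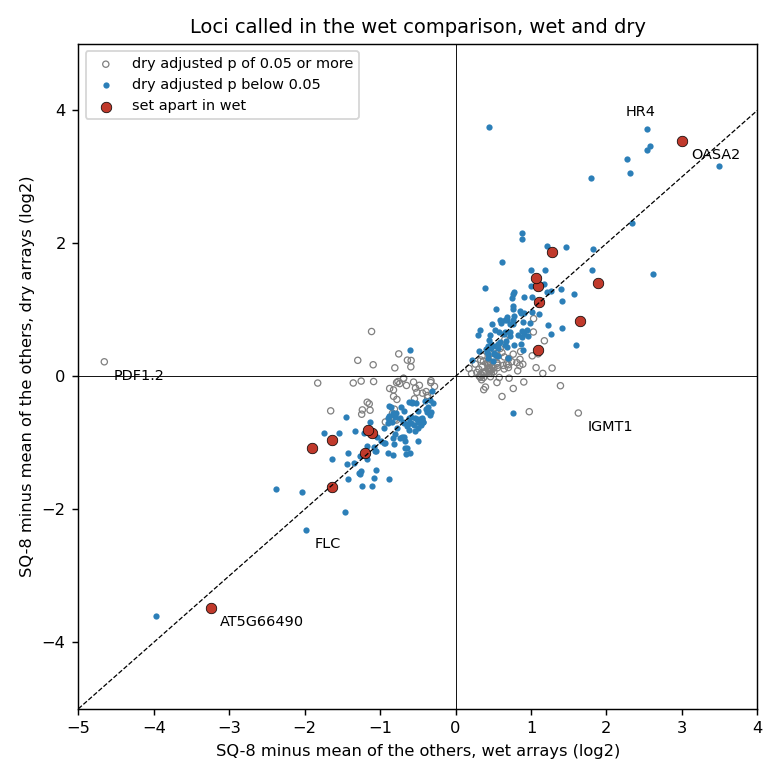
Difference of SQ-8 from the mean of the other 9 accessions on dry arrays (vertical axis, log2) against the same on wet arrays (horizontal axis, log2) for the 343 loci called in wet; filled blue points were also called in dry, open points were not, red points are the 15 loci set apart, and the dashed line marks equal values. Most points lie near the line, and PDF1.2, at -4.66 in wet and 0.22 in dry, and IGMT1, at 1.63 and -0.55, lie far from it.

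Whether the difference of SQ-8 depended on watering was tested as an interaction, the dry difference less the wet one, over all 59 arrays; the wet values that chose these loci enter it. Of all loci 742 passed (3.58%), and of the 343 wet-called loci 35 did (10.2%), of which 28 had a smaller or opposite difference in dry and 7 a larger one. The 35 became 8 without SQ-8 wet 3, 20 without the replicate block and 19 without dry 3. The count over all loci was 100 without SQ-8 wet 3, 475 without wet 1, 395 and 340 without dry 2 and 3, and 354 without the replicate block. Only 2 loci set apart passed: AT4G19470, whose difference grew by 0.59 ± 0.14 to 1.88 in dry (adjusted p = 0.016), and AT1G79260, whose difference shrank to 0.40 in dry (interaction -0.70 ± 0.17, adjusted p = 0.0154). Each lost this call without SQ-8 wet 3, among other arrays (adjusted p = 0.133 and 0.185).

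IGMT1 was called in wet and not in dry, and it passed the test of the difference between them. In dry SQ-8 it read 4.67, 4.17 and 4.48, below all 3 SQ-8 wet arrays, while the others kept a median of 4.66 in dry and 4.96 in wet. The interaction was -2.19 ± 0.41 (adjusted p = 0.00188), and the dry difference of -0.55 ± 0.25 was not called (adjusted p = 0.14). HR4 went the other way: SQ-8 read 11.17, 11.88 and 11.78 in dry, and Col, as high as SQ-8 in wet, read 9.44, 9.71 and 9.42, so that SQ-8 alone was at the top. Its difference was 3.72 ± 0.16 in dry and the interaction 1.18 ± 0.24 (adjusted p = 0.00433, and 0.0831 without SQ-8 wet 3). PDF1.2 in dry SQ-8 read 7.19, 7.25 and 4.89, within 3.57 to 12.69 of the others, with an interaction of 4.87 ± 1.55 that missed the threshold (adjusted p = 0.0649).

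FLC read 4.25, 4.23 and 4.41 in dry SQ-8, close to its wet values, with a dry difference of -2.31 ± 0.15 (adjusted p = 6.5e-09, interaction adjusted p = 0.578). Of the called list members, CW9 (1.27), PIF3 (0.78), RPP4 (-0.46), RLM3 (-0.81), COPT2 (-1.13) and AOP1 (-1.13) also passed in dry with the same sign, these values being log2 differences; RLM3 lost its dry call without the replicate block (adjusted p = 0.0628) or without SQ-8 dry 2 or 3 (0.212 and 0.112). XTH6, EXPB1, ESP and HSP18.2 did not pass there, at 0.87, 0.18, 0.31 and -0.18. Of the 12 large overlapping loci, the 11 other than PDF1.2 passed in dry with the same sign, from 1.53 for AT1G78450 to 3.72 for HR4 among the higher ones and from -1.7 for PAP3 to -3.60 for AT1G50290 among the lower ones.

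Salicylate defence genes gave 0 calls in the wet comparison and most of their list in the dry one. In wet, 0 of 22 genes were called, the median difference was -0.15, and the list averaged 6.75 in SQ-8 and 6.88 in the others. In dry, 16 of 22 were called higher in SQ-8 and 0 lower, where 8.17% of all loci were called higher and 11.3% lower, and the averages were 7.80 and 6.65. The 16 became 12, 10 and 9 without SQ-8 dry 1, 2 and 3. Of the 22, 7 passed the interaction, which 3.58% of all loci passed, all toward higher values in dry (2 without SQ-8 wet 3, 3 without dry 3 and 4 without dry 2 or without the replicate block), including EDS1 (1.77, adjusted p = 0.0023), PAD4 (1.7, adjusted p = 0.0103) and NPR1 (0.90, adjusted p = 0.00119), which encode partners in immune signalling and the salicylate receptor. PR1 read 11.83, 10.31 and 11.38 in dry SQ-8, against 5.27, 6.86 and 10.62 at the lowest, median and highest of the others. Its interaction of 3.46 ± 0.98 (adjusted p = 0.0372) was lost under 6 of the 8 alternatives tried. Leaf senescence genes had 0 of 20 calls in wet and 10 of 20, all higher, in dry, which fell to 3 without SQ-8 dry 1 or without the replicate block and to 5 without dry 2 or dry 3. Aliphatic glucosinolate genes had 1 of 20 lower in wet, and 15 of 20 lower and 1 higher in dry, with 12 to 15 lower in the same alternatives. The interaction passed for 2 of the 20 genes in each of these 2 lists (3.58% over all loci), and for 0 of both without SQ-8 wet 3 or without the replicate block. Among the 30 lists, these and the salicylate list had the most dry calls in 1 direction, and no rule set beforehand picked them. Other lists also had dry calls, with 7 of 15 photoreceptor genes lower and 1 higher. Among 19 NLR receptor genes 8 were higher and 3 lower, and 6 of 19 heat shock genes were higher. Members of all lists were chosen with earlier results of these data known.

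**Figure D4:**
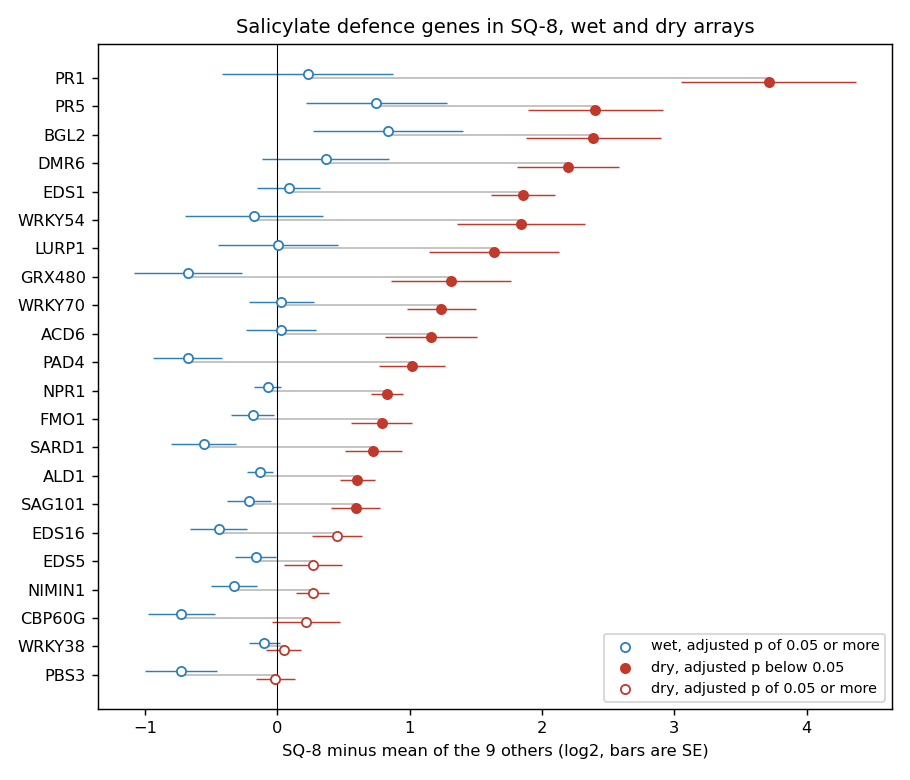
Difference of SQ-8 from the mean of the other 9 accessions (horizontal axis, log2, bars are SE) for the 22 measured salicylate defence genes, in blue on wet arrays and in red on dry arrays, filled where the adjusted p was below 0.05. All wet points are open and lie on both sides of 0, while 16 dry points are filled and lie above 0.

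The same model gave the counts for every accession against its own 9 others. In wet, SQ-8, with 343 called and 15 set apart, had fewer called loci than 8 of the 9 other accessions: KNOX-18 had 291, Ws-2 512, and Bur-0 the most with 2753. For loci set apart it stood level with HR-5 at 15, above KNOX-18 at 11 and below Bur-0 at 101. In dry its 4030 called and 115 set apart were the highest of all 10, with Ler next at 2364 called and 58 set apart. The SQ-8 dry count without its dry array 1 was 2123, below that of Ler from all arrays, and without dry 2 or 3 it was 2517 and 2467. These comparisons share arrays with one another, and the differences between the counts were not tested.

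**Figure D5:**
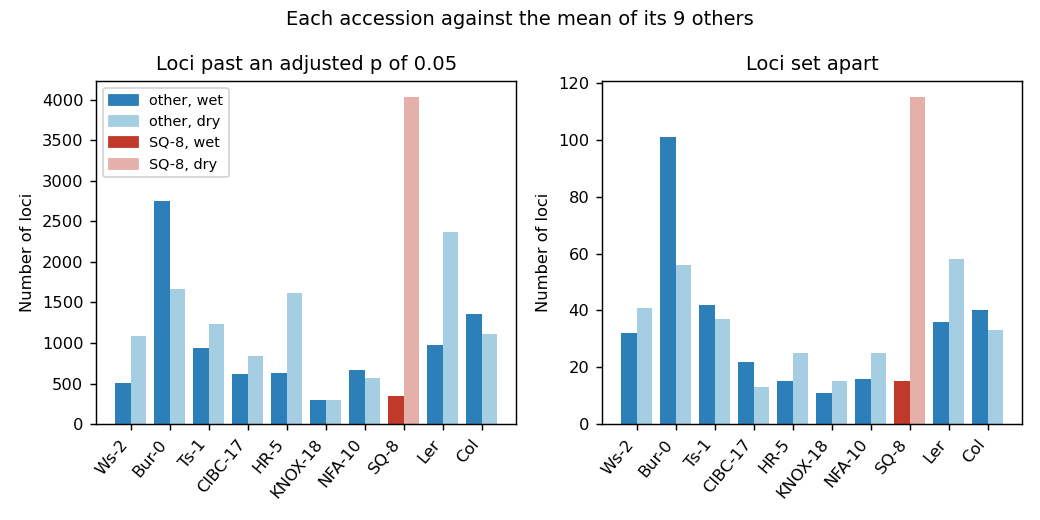
Number of loci (vertical axes, from 0) past an adjusted p of 0.05 (left) and set apart (right) when each accession is compared with the mean of its 9 others, on wet arrays in dark and on dry arrays in pale bars, with SQ-8 in red. The wet bar of SQ-8 is the second lowest on the left, at 343, and its dry bars are the highest in both panels, at 4030 and 115.

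Called loci lay on every chromosome. From 1.41% (chromosome 2) to 1.93% (chromosome 4) of the loci of a chromosome were called, and the 15 set apart fell on all 5 chromosomes. Of 342 called loci with a place in the reference order, 16 (4.68%) had a called neighbour with the same sign, in 8 pairs and no longer run. Over all loci 0.917% were called higher and 0.738% lower, and a locus has a neighbour on each side. Whether called loci adjoin more often than these shares would give was not tested. The pairs included the cytochrome P450 genes CYP71B3 and CYP71B24, both lower in SQ-8 with a difference of -1.09, whose values correlated at r = 0.709 over the 30 wet arrays, and AT5G39020 with AT5G39030, at r = 0.619. The pseudogene AT3G48650 and its neighbour AT3G48640 were both higher in SQ-8 but had r = -0.206 across the same arrays. These correlations describe 30 arrays that share accessions and replicate numbers, and probes of near-identical copies cannot be told apart here. Dim loci held few of the calls, with 17 of 343 (4.96%) in the lowest 25% by mean signal.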

How the data were processed

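Leaf cRNA of 10 accessions under 2 watering levels was measured on 59 arrays, and the deposited series table holds 1 log2 value per locus and array, from 3.07 to 14.06, as the authors made it. MAS5 and RMA are named, with no version or role, in the submitters' processing notes; the platform, and how probes became loci, are not stated there or in the labels. Values were used as deposited, and their precision is limited by the number of arrays. The reference gene table (assembly TAIR10.1) held 20546 of the 20728 loci and served only for names and order along chromosomes; coordinates are left out because the array's build is unnamed, and 14 loci whose values equal those of another locus on every array were not named.

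Groups came from the array titles. In R 4.3.3, limma 3.58.1 fitted a linear model (lmFit, then eBayes) to the 30 wet arrays, with 10 accession means and the replicate number as a block (18 residual and 2.24 prior degrees of freedom). The contrast was SQ-8 minus the mean of the other 9 accession means, and Benjamini-Hochberg adjustment ran over all 20728 loci. The same contrast was fitted on the 29 dry arrays, where KNOX-18 has numbers 1 and 3, and the interaction on all 59 arrays. Errors are standard errors of these fits. The scripts were tested on simulated data.

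The block follows from the matching by replicate number. Deviations from accession means correlated at a median of 0.354 between arrays of the same number (135 pairs, from -0.0552 to 0.725, 120 above 0.1) and of -0.235 between arrays of other numbers and accessions. The deviations of an accession cancel over its arrays, so a positive first value makes the second negative. The second value is therefore not separate evidence for the block. The meaning of a number is not stated in the labels.

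The genes named by rule were up to 12 loci set apart in each direction, up to 4 called members of each of 30 gene lists, 8 fixed genes (FLC, ACD6, ESM1, PHYD, ER, RPM1, PR1 and PDF1.2) and the 3 loci set apart with the smallest interaction p. Some exceptions are marked in the text. YAB3, LOX2, LOX3, EDS1, PAD4, NPR1, AT5G39030, AT3G48640, CYP71B3 and CYP71B24 were also named outside this rule, with their values known. Lists held 614 symbols, of which 15 were not matched and 520 loci were measured. Members and lists were chosen with earlier results of these data known, and some genes of natural variation were not analysed here. Alternatives were the fit without the block, all 59 arrays in the fit, centred medians, quantile normalization, a filter on dim loci, eBayes with trend and robust, other size limits, and leaving out each array or accession. A plan for values on a linear scale did not apply.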

Additional observations from a re-analysis of the deposited data

Results flagged for a closer look

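For 5 named genes the difference between SQ-8 and the other accessions itself differed between dry and wet, by the interaction test in limma over all 59 arrays. The dry difference less the wet one was -2.19 for IGMT1 (adjusted p = 0.00188), 1.18 for HR4 (0.00433), -0.698 for AT1G79260 (0.0154), 0.59 for AT4G19470 (0.016) and 3.46 for PR1 (0.0372). The calls of 4 of these genes were lost without at least 1 SQ-8 array, and IGMT1 kept its call under each of the 8 alternatives tried. Groups held 2 or 3 arrays, and single arrays were not tested for standing apart within a group.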

How the results depend on the processing

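The number of called loci (343) was 214 with no replicate block, and it ran from 171 (without SQ-8 wet 3) to 423 (without Ler wet 3) over the fits that left out 1 of the 30 wet arrays; 214 of 214, 161 of 171 and 340 of 423 were among the 343. The count of loci set apart (15) was 30 with a size limit of 0.5 and 2 with a limit of 2. It was 24 without the accession Ler and 15 to 28 without single arrays. All 15 stayed in 41 of the 46 settings that kept the limit of 1. Most of these settings only leave out arrays, which can remove an overlap but cannot create one. There a locus could be lost only through the test or the size limit. Called list members (13) were 7 with no replicate block and 6 to 14 without single arrays. The dry count (4030) was 2123 to 2517 without single SQ-8 arrays. The interaction count (742) was 354 with no replicate block and 100 to 953 without single arrays, alternatives chosen after seeing the data except the block. Loci separated from all other accessions (13) ranged from 10 to 15 without single arrays, were 9 with no replicate block, and from 12 (without Ws-2) to 18 (without CIBC-17) when an accession was left out; the accessions with more called loci than SQ-8 (8) ranged from 7 to 9. Of the named genes' wet values, 1953 stayed on their side of the threshold, 100 lost a call and 16 gained one; for dry differences these were 163, 17 and 0, and for interactions 345, 13 and 2. No sign of a called value turned. The share of calls that were higher in SQ-8 was 55.4%, and 48.5% without SQ-8 wet 3. The paired analysis with the replicate block is the one reported. Array signal near the floor of the scale, as for RPP4, limits what a difference can show.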
